A study of Mus musculus with 12 samples.

Results

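The histone genes measured here were the mouse genes whose symbol starts with H1f, H2ac, H2ax, H2az, H2aj, H2bc, H2bu, H3c, H3f or H4c and contains no hyphen. A gene was counted where at least 1 probe set of the array listed its symbol and no other. This gave 33 histone genes among 22180 genes, of which 26 were of the replication-dependent kind and 7 were variants. A further 41 histone symbols were listed only on probe sets that named several genes, among them 11 H2ac, 9 H2b, 12 H3c, 5 H4c and 3 H3f3 symbols. No H3 gene could therefore be read on its own, and 15 of the 33 genes were also listed on such shared probe sets. Because the copies are nearly identical in sequence, a value for any of those 15 genes may hold signal of another copy.

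Replication-dependent histone genes lie in dense clusters, are transcribed as cells copy their DNA, and give short messenger RNAs that end in a stem-loop in place of a poly(A) tail. H2A, H2B, H3 and H4 proteins form the nucleosome core around which DNA is wrapped, and H1 proteins bind the linker DNA between nucleosomes. Variant histones are encoded by scattered genes, and many, though not all, are made throughout the cell cycle and replace core histones at particular places. In blood cell development, progenitors divide and their histone genes are active, and most terminally differentiated cells have left the cell cycle.

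Gene expression was measured on 12 microarrays of classical dendritic cells (cDCs) and their progenitors at steady state. Every sample came from C57Bl/6 N8 Zbtb46GFP/+ mice, which carry a green fluorescent protein allele of the cDC transcription factor gene Zbtb46, so all groups shared that allele. From bone marrow came 3 arrays of the common dendritic cell progenitor (CDP; Lin-, CD117 intermediate, CD135+, CD115+, CD11c-, MHC II-). Bone marrow also gave 2 arrays of pre-CD8 cells (Lin-, CD135+, CD117 intermediate, Siglec H-, CD11c+, MHC II intermediate) and 2 of pre-CD4 cells (Lin-, CD135+, CD117 low, CD115+, CD11c+, MHC II-). From digested spleen came 3 arrays of CD24 DCs (CD11c+, CD24+, CD172a-) and 2 of CD172a DCs (CD11c+, MHC II+, CD172a+). Cells were pooled from 8 to 10 littermates and sorted to more than 95% purity, per the labels. The pre-CD8 and CD24 DC groups stand for the cDC1 lineage and the pre-CD4 and CD172a DC groups for the cDC2 lineage. Organ and tissue preparation differed between progenitors and spleen DCs, so tissue and maturation cannot be told apart. These are bulk samples, in which fewer dividing cells and less histone RNA per cell cannot be told apart either. The labels do not say what separates arrays of a group, so p-values measure the spread between these arrays, which may be technical.

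The arrays were alike in scale, with mean log2 values of 5.28 to 5.34 over all probe sets. Marker levels matched most labels: the mean of the cDC1 list was 10.10 to 10.53 on CD24 DC arrays against 7.20 to 7.59 on CD172a DC arrays, and the progenitor list was highest on CDP arrays (10.17 to 10.35). Kit, the CD117 gene on that progenitor list, went the other way. It averaged 8.24 in CDPs, 5.95 in pre-CD4 and 9.04 in pre-CD8 cells, and 9.70 in CD172a and 9.71 in CD24 DCs. H2-Aa, an MHC class II gene, averaged 11.65 in CD24 DCs, whose gate the labels give as MHC II negative. Plasmacytoid DC markers averaged 8.18 to 8.49 on pre-CD4 arrays and at most 6.76 elsewhere. Neutrophil markers, 7 of 7 measured, differed between arrays of a group: their mean was 5.87 and 9.07 on the pre-CD8 arrays, 6.81 and 4.49 on the CD172a DC arrays, and 4.57 to 6.75 on the CD24 DC arrays. Their part in the histone results was not tested. Erythroid markers averaged 4.82 to 5.45 on all 12 arrays. Basophil, mast cell and eosinophil markers, 6 of 6 measured, averaged 5.54 and 6.42 on the pre-CD8 arrays, 3.90 to 4.36 on the CD24 DC arrays and 4.05 to 5.07 on the others.

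Across the 26 replication-dependent genes, the mean log2 value per array was highest and similar in the 3 marrow populations and lower in both spleen populations. It was 6.74, 6.61 and 6.61 on the CDP arrays, 6.98 and 6.48 on the pre-CD4 arrays, and 6.95 and 6.14 on the pre-CD8 arrays. The spleen arrays gave 5.04 and 5.08 for CD172a DCs and 5.80, 4.98 and 4.84 for CD24 DCs. Every spleen array was below every marrow array by this mean. The first CD24 DC array was the highest of its group for 22 of the 26 genes, the first pre-CD8 array for 23, the first pre-CD4 array for 19, the first CD172a DC array for 14 and the first CDP array for 10. The 7 variants together ranged from 6.59 to 7.04 on marrow arrays and from 5.78 to 6.29 on spleen arrays.

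**Figure D1:**
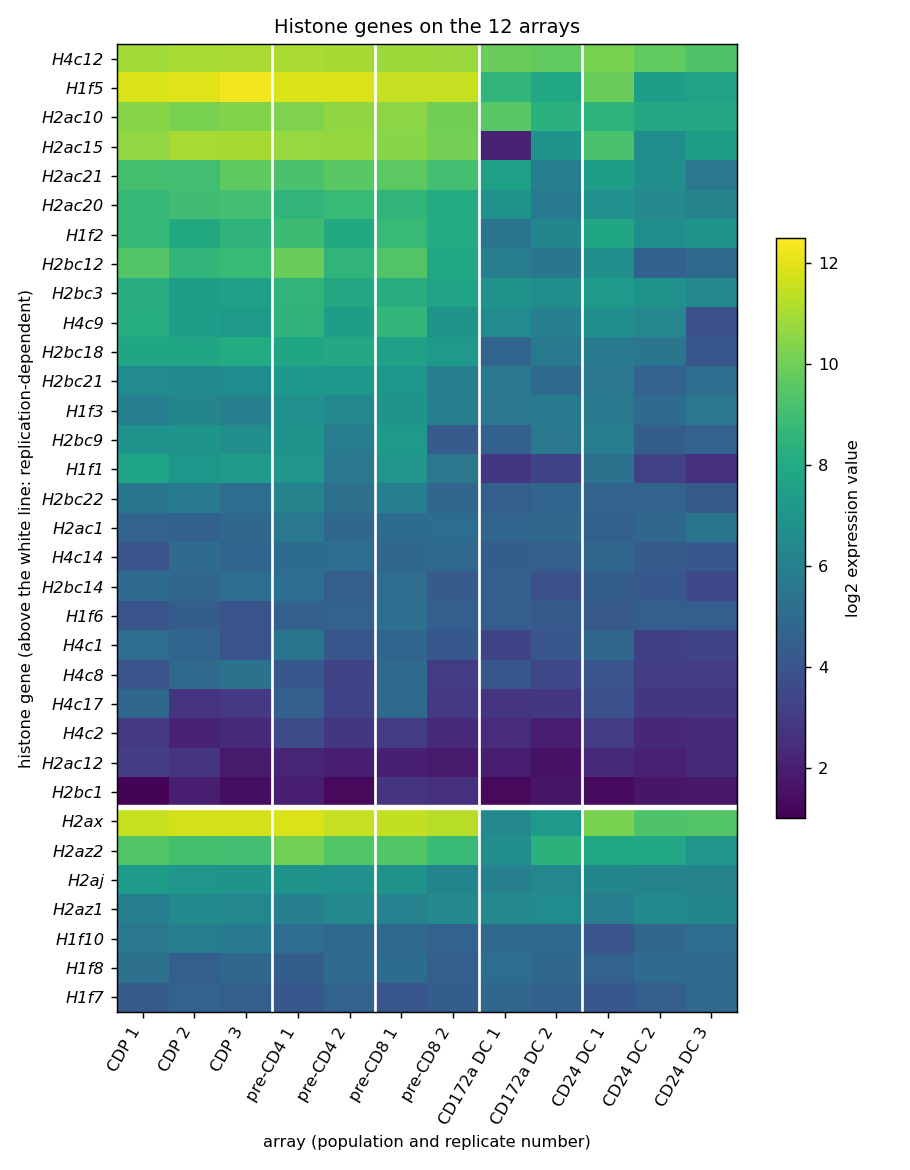
Log2 value of each of the 33 histone genes (rows, grouped by class) on each of the 12 arrays (columns, grouped by population), with the colour scale giving the log2 value. Genes such as H1f5, H2ac15 and H2ax are high on all 7 marrow arrays and lower on the 5 spleen arrays, while values of different genes come from different probe sets and are not compared as levels.

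Of the replication-dependent genes, the mean over all arrays was lowest for H2bc1, a testis-type H2B gene with values of 1.11 to 2.78, and highest for H4c12, an H4 gene with values of 9.35 to 11.06. Different genes were read by different probe sets, so this order is not one of transcript amounts. No detection calls were used, so a low value need not come from a detected transcript, and a low gene has little room to fall. Among the variants, the mean over all arrays was highest for H2ax, an H2A variant whose phosphorylated form marks DNA breaks (10.31), and lowest for H1f7, a testis-type linker histone (4.46). All 5 spleen arrays read below all 7 marrow arrays for 15 of 26 replication-dependent genes (57.7%) and for H2ax and H2az2 among the 7 variants (28.6%). The same was so for 1380 of the 22180 genes (6.22%).

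The upstream sequences of 6 start regions are shown because the promoters of these genes carry short elements whose counts follow, and because they include H1f5 and H2bc12, which fell most in the cDC1 lineage among the called genes, H2A genes beside their paired H2B genes, and 2 H2AZ genes of which only H2az2 was called. H2A and H2B genes often lie head to head and share the bases between their start sites. Sequences are from RefSeq (GRCm38.p6) and read 5′ to 3′, with capitals marking CCAAT, the box bound by NF-Y, TATAAA, the TATA box, and ATTTGCAT, the octamer bound by Oct factors, on either strand. The H2ac12-H2bc12 stretch is chr13:22035644-22035820 on the plus strand, read toward H2bc12. The H2ac20-H2bc21 stretch is chr3:96220881-96221071 on the plus strand, read toward H2bc21. The other 4 are the 150 bases before the start that the RefSeq promoter table gives for H1f5 (chr13:21780626-21780775, minus strand), H4c12 (chr13:21750554-21750703, minus), H2az1 (chr3:137864337-137864486, plus) and H2az2 (chr11:6444444-6444593, minus). That start of H2az2 lies inside the outer limits of the annotated gene, so part of its stretch falls within them.
H2ac12-H2bc12: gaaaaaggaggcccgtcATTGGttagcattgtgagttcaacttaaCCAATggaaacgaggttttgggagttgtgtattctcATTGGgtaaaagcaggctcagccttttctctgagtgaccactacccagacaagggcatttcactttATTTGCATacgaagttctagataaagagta
H2ac20-H2bc21: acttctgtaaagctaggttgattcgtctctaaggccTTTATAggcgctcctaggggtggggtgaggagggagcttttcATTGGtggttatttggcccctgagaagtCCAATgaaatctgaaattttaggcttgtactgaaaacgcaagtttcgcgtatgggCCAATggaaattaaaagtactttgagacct
H1f5: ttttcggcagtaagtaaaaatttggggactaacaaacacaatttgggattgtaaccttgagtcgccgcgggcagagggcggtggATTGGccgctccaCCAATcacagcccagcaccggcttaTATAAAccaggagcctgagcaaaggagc
H4c12: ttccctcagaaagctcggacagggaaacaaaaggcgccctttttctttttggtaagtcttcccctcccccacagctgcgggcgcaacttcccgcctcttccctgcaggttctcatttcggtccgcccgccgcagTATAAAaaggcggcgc
H2az1: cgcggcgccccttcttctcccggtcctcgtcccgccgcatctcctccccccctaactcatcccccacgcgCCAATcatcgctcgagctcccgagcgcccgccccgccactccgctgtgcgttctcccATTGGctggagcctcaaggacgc
H2az2: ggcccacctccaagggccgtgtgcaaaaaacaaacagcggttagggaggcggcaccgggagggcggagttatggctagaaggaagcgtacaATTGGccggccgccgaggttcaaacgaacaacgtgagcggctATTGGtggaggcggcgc

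Promoter windows of 300 bases (250 before and 50 after the start) were at hand for 30 of the 33 genes, with none for H2ax, H2bc21 and H4c14. CCAAT was found on either strand in 19 of 24 replication-dependent windows (79.2%), 4 of 6 variant windows (66.7%) and 37.4% of all 32851 windows. It was in 13 of 13 H2A and H2B windows and in 6 of 11 H1 and H4 windows (54.5%). TATAAA was in 16 of 24 replication-dependent windows (66.7%), in 0 of 6 variant windows and in 13.6% of all windows. ATTTGCAT was in 8 of the 13 H2A and H2B windows (61.5%), in 0 of the 11 H1 and H4 windows, in 0 of the 6 variant windows and in 1.74% of all windows. None of the 3 motifs contains another, and a match describes the sequence and is no evidence that a factor binds there. Windows of head-to-head genes overlap and reach past the start sites, so the same site can count for both genes. The windows of H2ac12 and H2bc12 held TATAAA and that of H2ac20 held ATTTGCAT. The printed stretches between the starts of these pairs held no such match.

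The first comparison asked how the committed progenitors differed from the CDP. No replication-dependent gene was lower in pre-CD8 cells and 1 was higher, against 4.77% of all genes called, 2.29% higher and 2.47% lower (limma, Benjamini-Hochberg adjusted p under 0.05). The median difference of the 26 genes was -0.07 on the log2 scale, beside 0.03 for all genes. It became -0.55 without the first pre-CD8 array and 0.34 without the second, so its sign rests on which of the pair is used. The calls turned as well: without the first pre-CD8 array H2bc9 was called lower (-2.53), and without the 5 arrays numbered 1 no gene was higher and 3 were lower, H1f1 (-1.65), H2bc9 (-2.52) and H4c8 (-2.13). Without CDP 3, H2ac12 was called lower (-1.02). In pre-CD4 cells 0 of 33 histone genes were called, beside 4.54% of all genes (2.32% higher and 2.23% lower), and 2 had an unadjusted p under 0.05. The median there was 0.12 for the replication-dependent genes and 0.02 for all genes, and it too turned, to -0.16 without the first pre-CD4 array against 0.42 without the second.

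The gene that rose in pre-CD8 cells was H2bc1, with values of 2.78 and 2.61 there and of 1.11, 1.97 and 1.44 in CDPs. Both pre-CD8 arrays lay above the CDP arrays, and 36.1% of all genes had no overlap in this comparison, in either direction. All of these H2bc1 readings were near the bottom of the scale. The difference was 1.19 ± 0.28 (SE, 2 against 3 arrays; limma adjusted p = 0.0258). The call was lost without either of CDP 1 and CDP 3, or either pre-CD8 array, with values of 0.90 to 1.42 and adjusted p of 0.0136 to 0.213 over all settings tried.

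Between the committed progenitors, pre-CD8 against pre-CD4, limma called 0 of 33 histone genes and 0.703% of all genes, and 1 histone gene had an unadjusted p under 0.05. H1f5, a somatic linker histone, read 11.47 and 11.50 in pre-CD8 cells, 11.84 and 11.88 in pre-CD4 cells, and 11.84, 11.96 and 12.28 in CDPs. H2ax read 11.44 and 11.28 in pre-CD8 cells, 11.84 and 11.50 in pre-CD4 cells, and 11.55, 11.77 and 11.75 in CDPs. Both genes were lowest in pre-CD8 cells, by amounts that did not pass the test. In 23 of 26 replication-dependent genes the pre-CD8 mean was below the pre-CD4 mean, with a median of -0.20 beside 0.01 for all genes. This direction rested on single arrays: the median was 0.05 without pre-CD4 1 and 0.12 without pre-CD8 2, with 14 of 26 genes then higher in pre-CD8 cells, and -0.57 without pre-CD8 1.

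Some genes of DNA replication fell over these steps. Of 37 measured S phase genes, which encode the replication machinery and nucleotide synthesis, 10 fell from CDP to pre-CD8 and 3 from CDP to pre-CD4, with median differences of -0.79 and -0.49, against 2.47% and 2.23% of all genes lower. Mcm3, part of the replicative helicase, fell by 1.42 on the log2 scale in pre-CD8 cells (SE 0.25, limma adjusted p = 0.00389) and by 1.10 in pre-CD4 cells (SE 0.25, adjusted p = 0.021). Orc1, an origin-binding subunit, fell by 1.32 in pre-CD8 cells, and Cdt1, a licensing factor, fell by 0.98 in pre-CD4 cells. Among 19 mitosis genes none was called in pre-CD8 cells and 1, the kinetochore gene Cenpf, rose in pre-CD4 cells (0.94 ± 0.22, SE), where 2.32% of all genes rose. The difference between these lists and the histone genes was not tested.

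**Figure D2:**
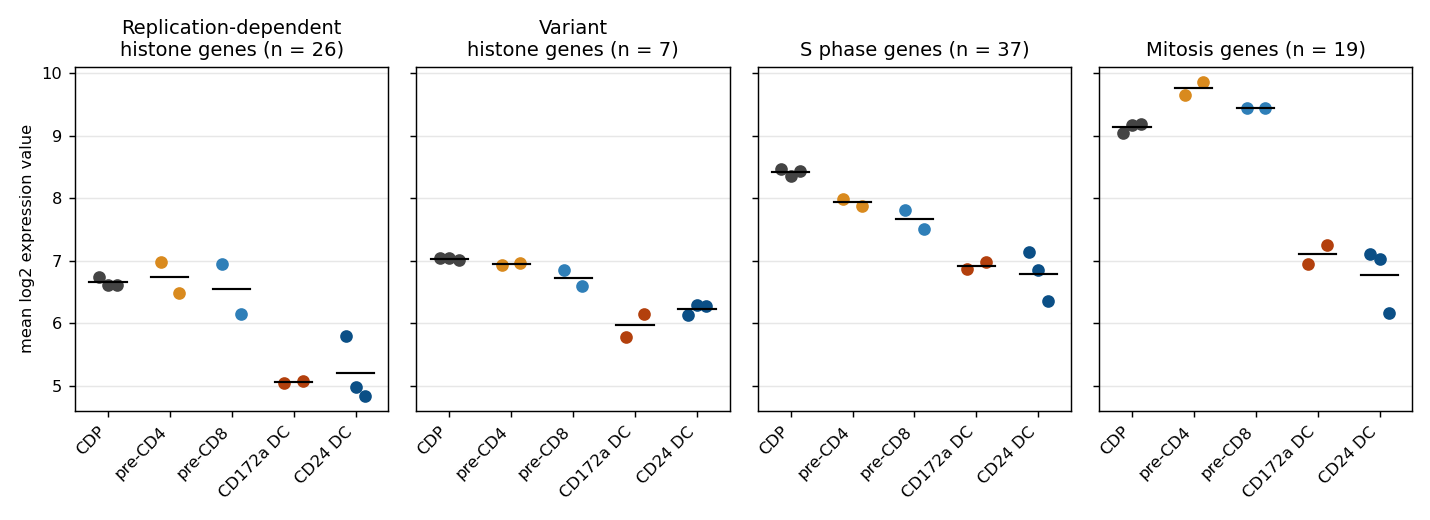
Mean log2 value per array over the 26 replication-dependent histone genes, 7 variant histone genes, 37 S phase genes and 19 mitosis genes, for the 5 populations; each point is 1 array and the bar is the group mean. The S phase mean goes from 8.35 to 8.46 in CDPs to 7.51 to 7.81 in pre-CD8 cells, while the replication-dependent histone mean spans 6.14 to 6.98 over all 7 marrow arrays.

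From pre-CD8 cells to CD24 DCs, 13 of the 33 histone genes fell. Of the 26 replication-dependent genes 12 were lower and none was higher, against 3.66% of all genes lower and 2.65% higher. In 25 of 26 the mean difference was negative, with a median of -1.09 beside 0.05 for all genes. The genes that fell were H1f1, H1f3 and H1f5 of 5 H1 genes, H2ac10, H2ac20 and H2ac21 of 6 H2A genes, H2bc1, H2bc3, H2bc12, H2bc18 and H2bc21 of 8 H2B genes, and H4c12 of 7 H4 genes. H2ax was the single variant of 7 that fell.

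H2bc12, an H2B gene, read 9.38 and 7.86 in pre-CD8 cells against 6.71, 4.56 and 4.98 in CD24 DCs. H1f5 read 11.47 and 11.50 against 9.87, 7.38 and 7.64. The groups did not overlap in either gene, as in 28.8% of all genes in this comparison, in either direction. The first CD24 DC array was the highest of its group in both H2bc12 and H1f5. H2bc12 was 9.21-fold lower (-3.20 ± 0.59, SE; limma adjusted p = 0.00441) and H1f5 9.08-fold lower (-3.18 ± 0.53, adjusted p = 0.00212). Over all settings the difference was -2.45 to -3.96 for H2bc12 (5.45- to 15.6-fold), lowest without pre-CD8 1, where it was not called, and highest without pre-CD8 2. For H1f5 it was -2.72 to -3.98 (6.61- to 15.8-fold), with -3.97 without CD24 DC 1.

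H2ac21, an H2A gene, read 9.59 and 9.05 in pre-CD8 cells and 7.44, 6.68 and 5.62 in CD24 DCs, a difference of -2.74 ± 0.50 (SE, limma adjusted p = 0.00381). It had 2 probe sets of its own, of which the one with the higher mean is reported. Over all settings its difference was -2.07 to -3.17, with -2.46 without pre-CD8 1. H1f1, a linker histone of dividing cells, read 7.02 and 5.54 against 5.28, 3.28 and 2.59, a difference of -2.56 ± 0.65 (adjusted p = 0.0327). Its groups came close, with 5.54 on the second pre-CD8 array and 5.28 on the first CD24 DC array. The call of H1f1 was lost without pre-CD8 1, CD24 DC 2 or 3, or CD172a DC 1 or 2, with adjusted p of 0.00084 to 0.43 over all settings.

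Smaller falls came from genes of all 4 families. H4c12 read 10.81 and 10.75 in pre-CD8 cells and 10.19, 9.68 and 9.35 in CD24 DCs. Every CD24 DC array was lower although the fold was 2.05, and 28.8% of all genes had no overlap in this comparison. H2ac20, which shares its start region with H2bc21, read 8.54 and 8.09 against 6.81, 6.43 and 6.16. H2ac10 read 10.51 and 10.02 against 8.44, 7.94 and 7.95. The remaining called genes were H1f3, H2bc1, H2bc3, H2bc18 and H2bc21, with differences of -1.06 to -2.27.

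Of the 6 basophil, mast cell and eosinophil markers, 4 were lower in the same comparison, and their part in the histone counts was not tested. The count of 12 rested on the first pre-CD8 array. Without it 3 genes stayed called, H1f5, H2ac10 and H2ac20, and 2.57% of all genes were called in either direction, against 6.31% with it. H1f3 then differed by -0.58 and H2bc21 by -0.85. The count was 7 without CD24 DC 2 and 8 without CD24 DC 3. With only the arrays of these groups in the fit it was 6.

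From pre-CD4 cells to CD172a DCs, 12 of 26 replication-dependent genes and 2 of 7 variants fell and none rose, against 8.02% of all genes lower and 4.7% higher. The mean difference was negative in 26 of 26, with a median of -1.24 beside 0.09 for all genes. By family, 3 of 5 H1, 4 of 6 H2A, 4 of 8 H2B and 1 of 7 H4 genes fell. In the reported fit H2ac15 and H1f2 were called here and not in the cDC1 lineage, and H1f3 and H2bc1 the other way round. H1f3 differed by -1.06 in cDC1 and by -0.95 in cDC2. Its cDC2 difference was called under the filter on dim genes and with only the groups compared. Its cDC1 call was lost with only the groups compared and when any CDP or pre-CD4 array was left out. H2bc1 read near the bottom of the scale, and its call was lost under quantile normalization and with only the groups compared. 10 genes were called lower in both lineages: H1f1, H1f5, H2ac10, H2ac20, H2ac21, H2bc3, H2bc12, H2bc18, H2bc21 and H4c12. How many of all genes were called lower in both was not counted. The pair of comparisons shares no arrays, although all arrays enter the estimate of spread.

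H2ac15, an H2A gene, read 10.73 and 10.69 in pre-CD4 cells and 2.16 and 6.91 in CD172a DCs. The CD172a DC arrays differed by more than 4 log2 units in this gene, and both lay below all marrow arrays. The fitted difference was -6.17 ± 1.08 (SE, limma adjusted p = 0.00187), and -3.80 without CD172a DC 1, where adjusted p was 0.00736. Over all settings adjusted p ran from 5.75e-05 to 0.0199. In the cDC1 lineage H2ac15 read 10.46 and 10.11 in pre-CD8 cells and 9.19, 6.63 and 7.43 in CD24 DCs, a difference of -2.53 ± 0.98 that was not called (adjusted p = 0.185). The same difference was called when either CD172a DC 1 or CD172a DC 2 was left out. Without the 5 arrays numbered 1 it was -3.08 and was called.

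H1f5 read 11.84 and 11.88 in pre-CD4 cells and 8.52 and 7.86 in CD172a DCs, which made it 12.8-fold lower (-3.68 ± 0.58, SE; limma adjusted p = 0.001). H2bc12 read 9.89 and 8.53 against 5.90 and 5.52, which made it 11.3-fold lower (-3.50 ± 0.65, adjusted p = 0.00287). H1f1 read 6.996 and 5.58 against 2.88 and 3.35, a difference of -3.18 ± 0.72 (adjusted p = 0.0099). Over all settings the difference was -3.35 to -4.03 for H1f5 and -2.82 to -4.19 for H2bc12, the latter without pre-CD4 1 and without pre-CD4 2. In all 3 genes the progenitor arrays stood clear of the DC arrays, as they did in 60.5% of all genes in this comparison, in either direction. The H1f1 call was lost without CD172a DC 1 or pre-CD4 1, and its difference ran from -2.23 to -3.88 over all settings.

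H1f2, a widely expressed linker histone, read 8.90 and 8.00 in pre-CD4 cells and 5.44 and 6.23 in CD172a DCs, a difference of -2.61 ± 0.41 (SE, limma adjusted p = 0.000986). In the cDC1 lineage it read 8.77 and 8.09 in pre-CD8 cells and 7.77, 6.72 and 6.97 in CD24 DCs, a difference of -1.28 ± 0.38 that missed the threshold (adjusted p = 0.0669). That difference was called under the filter on dim genes (limma adjusted p = 0.0436) and, at -1.59, without CD24 DC 1. The difference between the lineages in H1f2 was 1.33 ± 0.56 and was not called (adjusted p = 0.436), so a lineage difference in this change was not shown for it. Between CD24 and CD172a DCs H1f2 was not called in the reported fit. It was called higher in CD24 DCs under quantile normalization (1.46, limma adjusted p = 0.0371), the filter on dim genes (1.32, 0.0415) and the block by replicate number (1.34, 0.0412).

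The other genes called in the cDC2 lineage were H2ac10, H2ac20, H2ac21, H2bc3, H2bc18, H2bc21 and H4c12, with differences of -1.19 to -2.66. H2ac20 read 8.53 and 8.73 in pre-CD4 cells and 6.88 and 5.79 in CD172a DCs. H2bc18, an H2B gene on chromosome 3, read 7.75 and 7.94 against 4.73 and 5.66, and 7.58 and 7.22 in pre-CD8 cells against 5.74, 5.53 and 4.12 in CD24 DCs. The difference in H2ac10 became -0.92 without CD172a DC 2, where it was no longer called, and its call was also lost without pre-CD4 2. H2ac21 was not called without CD172a DC 2, H4c12 without pre-CD4 1, and H2bc3 without CD172a DC 1 or 2 or pre-CD4 1. The count of genes called was 9 to 14 when arrays were left out in turn.

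**Figure D3:**
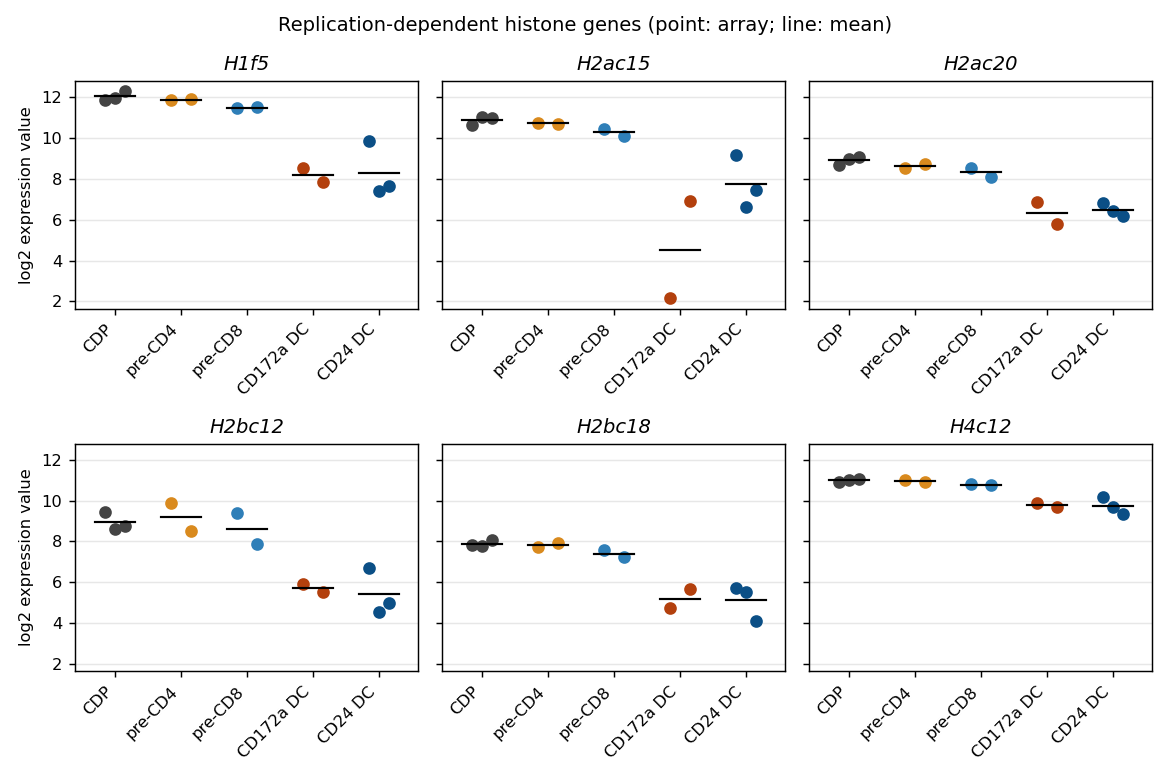
Log2 values of 6 replication-dependent genes (H1f5, H2ac15, H2ac20, H2bc12, H2bc18 and H4c12) in the 5 populations; each point is 1 array and the bar is the group mean. In all 6 panels the 7 marrow arrays lie above the 5 spleen arrays, and H2ac15 shows the widest gap within a group, 2.16 and 6.91 in CD172a DCs.

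**Figure D4:**
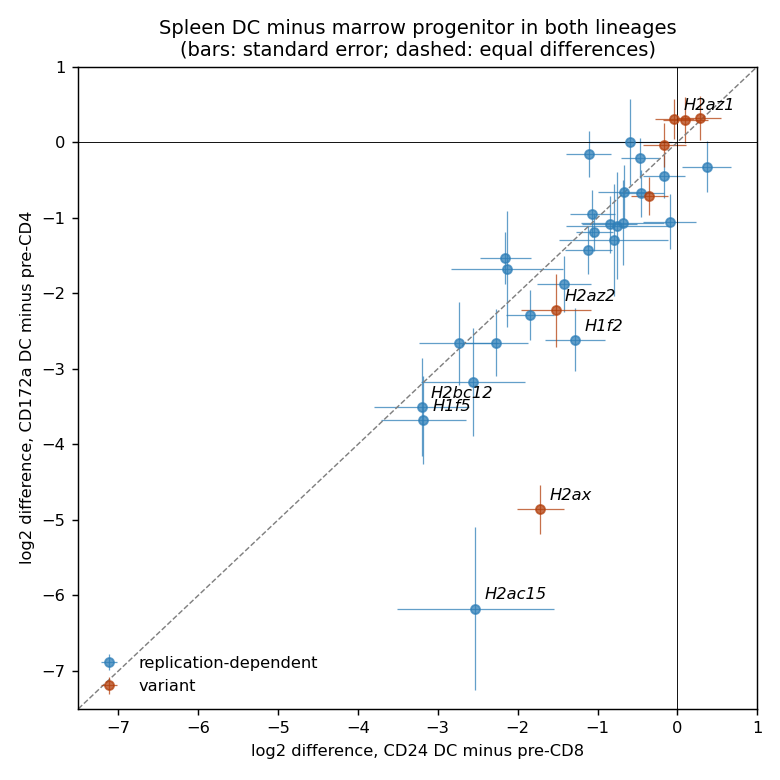
Log2 difference from progenitor to spleen DC for each of the 33 histone genes, with the cDC1 lineage (CD24 DC minus pre-CD8) on the horizontal and the cDC2 lineage (CD172a DC minus pre-CD4) on the vertical axis, coloured by class, with bars for the standard error and a dashed line of equal difference. Most genes lie below 0 in both lineages, and H2ax (-1.72 in cDC1, -4.86 in cDC2) and H2ac15 (-2.53 and -6.17, with wide errors) lie farthest from the line.

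In the reported fit, the genes that were called in neither lineage numbered 12 of 26, and 9 of these had a mean under 5 on the log2 scale, against 1 of the 14 called in either. They were H1f6, H2ac1, H2ac12, H2bc9, H2bc14, H2bc22, H4c1, H4c2, H4c8, H4c9, H4c14 and H4c17. H4c9 read 8.12, 7.40 and 7.26 in CDPs, 8.47 and 7.47 in pre-CD4 cells, 8.60 and 6.95 in pre-CD8 cells, 6.56 and 6.02 in CD172a DCs, and 6.74, 6.32 and 3.84 in CD24 DCs. All its spleen values were below its marrow values, and its differences of -2.14 and -1.68 were not called in that fit. The cDC2 difference of H4c9 was called with only the groups compared (limma adjusted p = 0.0137) and with the replicate block (0.0276). Its cDC1 difference was called, at -2.69, without CD24 DC 1. With the replicate block H2bc22 and H4c2 were called lower in the cDC2 lineage as well. H2bc9 read 7.26 and 4.30 on the pre-CD8 arrays, a gap wider than its mean difference from progenitor to DC in that lineage. The testis-type genes H1f6 and H2ac1 read 3.94 to 5.19 and 4.57 to 5.59 over the 12 arrays, and no comparison called them.

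The calls were also counted by position and by probe set. Of 21 replication-dependent genes on chromosome 13, 8 were lower in each lineage, and of 5 on chromosome 3, 4 were lower in each. Among all genes 3.66% were lower in the cDC1 lineage and 8.02% in the cDC2 lineage. Among all 33 histone genes, those also listed on shared probe sets were lower in 4 of 15 cases in the cDC1 lineage and 5 of 15 in the cDC2 lineage, against 9 of 18 in each lineage for those on their own probe set. The paired genes differed from each other: H2ac12 read 1.58 to 3.09 over the 12 arrays with no call, while H2bc12, across the shared start region printed above, was among the genes that fell most in both lineages. H2ac20 and H2bc21, the other pair, both fell in both lineages. None of these differences between groups of genes was tested.

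Of the variants, H2ax changed most. It read 11.84 and 11.50 in pre-CD4 cells and 6.40 and 7.23 in CD172a DCs, and was 29.0-fold lower in the DCs (-4.86 ± 0.32, SE; limma adjusted p = 1.55e-06), with -4.27 to -5.28 over all settings. In the cDC1 lineage it read 11.44 and 11.28 in pre-CD8 cells and 10.20, 9.32 and 9.42 in CD24 DCs, and was 3.28-fold lower (-1.72 ± 0.29, adjusted p = 0.00243). No CD24 DC array came within 2 log2 units of a CD172a DC array. The difference between CD24 and CD172a DCs was 2.83 ± 0.29 (adjusted p = 7.12e-05), a 7.11-fold higher level in CD24 DCs, against 3.21% of all genes higher and 2.37% lower.

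The change on maturation differed between the lineages for H2ax by 3.14 ± 0.43 (SE; limma interaction contrast, adjusted p = 0.00298). It was the only histone gene called in that test among 33, against 1.03% of all genes, and 3 others had an unadjusted p under 0.05. Over all settings the difference was 2.36 to 3.56 and adjusted p 0.00144 to 0.0532. The call was lost when the 5 arrays numbered 1 were left out together (2.36, adjusted p = 0.0532). No replication-dependent gene was called between CD24 and CD172a DCs (0 of 26 by limma, 3 at an unadjusted p under 0.05), with 13 of 26 higher in CD24 DCs and a median of 0.01 beside -0.01 for all genes. The number higher was 8 of 26 without CD24 DC 1 (median -0.23) and 19 of 26 without CD24 DC 3 (0.19). H2ac15 differed by 3.21 ± 0.98 (adjusted p = 0.0821), with overlapping arrays, and was called without CD172a DC 2, where the difference was 5.59.

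H2az1 and H2az2 encode near-identical forms of the H2A variant that sits beside active start sites, and they read differently. H2az1 averaged 6.23 ± 0.28 (SD, n = 3) in CDPs, 6.22 ± 0.29 (n = 2) in pre-CD4 cells, 6.26 ± 0.25 (n = 2) in pre-CD8 cells, 6.52 ± 0.14 (n = 2) in CD172a DCs and 6.22 ± 0.29 (n = 3) in CD24 DCs. Its differences on maturation were -0.04 ± 0.24 and 0.30 ± 0.27 (SE). H2az2 read 10.07 and 9.39 in pre-CD4 cells and 6.62 and 8.39 in CD172a DCs, a difference of -2.22 ± 0.48 (limma adjusted p = 0.00765).

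In the cDC1 lineage H2az2 read 9.43 and 8.75 in pre-CD8 cells and 7.85, 7.87 and 6.98 in CD24 DCs, a difference of -1.52 ± 0.44 that missed the threshold (limma adjusted p = 0.0598). This difference was called under the filter on dim genes (limma adjusted p = 0.0399) and with only the groups compared (0.0487). It was also called when either CD172a DC array was left out. All 5 spleen arrays lay below all 7 marrow arrays. The cDC2 difference was -1.34 without CD172a DC 1 and was then not called, nor was it without pre-CD4 1 (-1.89). Its adjusted p was 0.00104 to 0.293 over all settings.

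The other variants were not called in any comparison, H1f10 excepted under other settings. H2aj, an H2A variant, read 7.34, 7.001 and 6.94 in CDPs, 6.95 and 6.82 in pre-CD4 cells, 6.89 and 6.20 in pre-CD8 cells, 6.03 and 6.31 in CD172a DCs, and 6.27, 6.15 and 6.16 in CD24 DCs. Its difference in the cDC2 lineage was -0.71 ± 0.25 (SE, limma adjusted p = 0.0824). H1f10, a linker histone variant, read 5.60, 5.81 and 5.71 in CDPs, above the 9 other arrays, which read 3.997 to 5.13. It differed by -0.92 ± 0.27 in pre-CD8 cells (adjusted p = 0.0786, and 0.0309 with only the groups compared) and by -0.67 ± 0.27 in pre-CD4 cells (adjusted p = 0.236). H1f10 was called lower in pre-CD8 cells under the filter on dim genes and without CD24 DC 1 or CD24 DC 3 as well. The germ cell linker histones H1f7 and H1f8 read 4.08 to 4.99 and 4.39 to 5.25 over the 12 arrays.

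**Figure D5:**
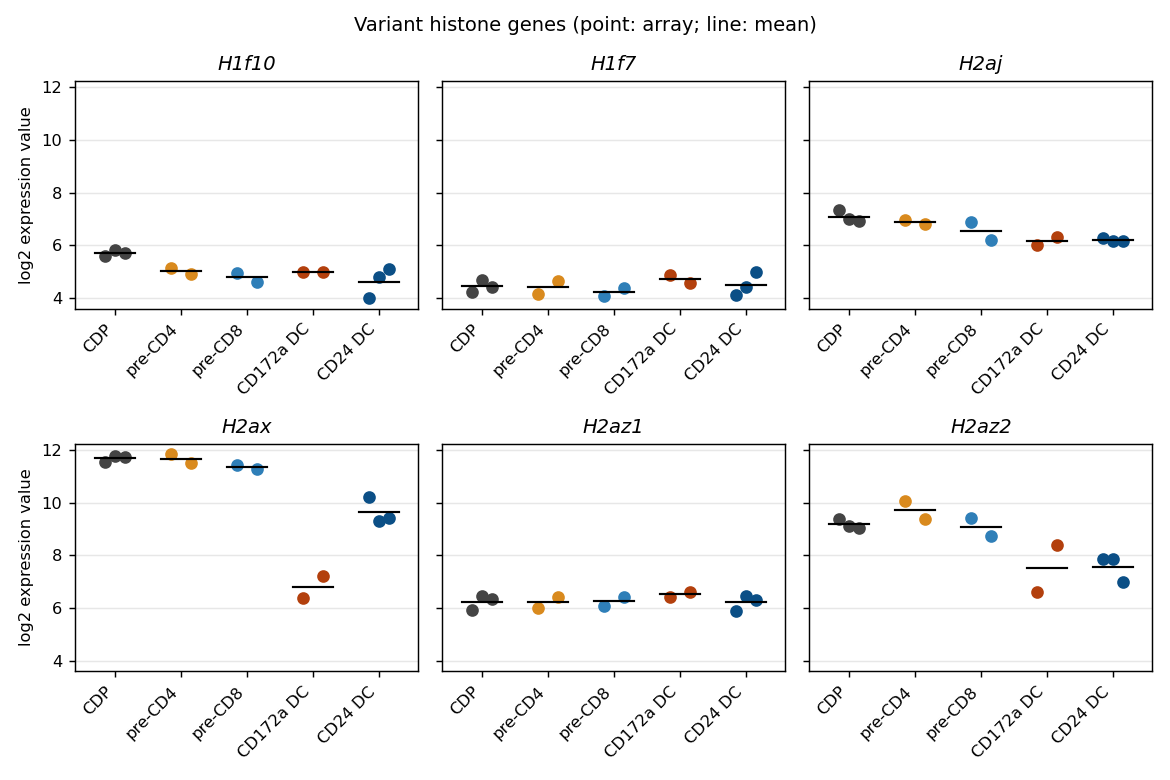
Log2 values of 6 of the 7 variant histone genes (H1f10, H1f7, H2aj, H2ax, H2az1 and H2az2) in the 5 populations; each point is 1 array and the bar is the group mean. H2ax falls from 11.28 to 11.84 in committed progenitors to 9.32 to 10.20 in CD24 DCs and 6.40 to 7.23 in CD172a DCs, while H2az1 stays between 5.90 and 6.62.

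Genes that make, process and handle histones were counted in the same way. Of 25 measured genes of histone mRNA synthesis and processing, 3 were lower in CD24 DCs and 7 in CD172a DCs, with medians of -0.42 and -0.67, and none was higher. Among all genes 3.66% and 8.02% were lower in these comparisons. Nfyb, a subunit of the CCAAT-binding factor NF-Y, fell in both lineages, with differences of -1.39 ± 0.23 and -2.14 ± 0.25 (SE). Cdk2, the S phase kinase, fell by 1.23 in the cDC1 lineage, and Lsm1, an RNA decay factor, by 1.76 in the cDC2 lineage. Lsm1 was higher in CD24 than in CD172a DCs (1.29 ± 0.32).

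Among 27 histone chaperone and deposition genes, 7 were lower in CD24 DCs and 8 in CD172a DCs, with none higher. The shares of all genes lower were 3.66% and 8.02%. Asf1b, the chaperone of new H3 and H4 in dividing cells, fell in both (-1.41 and -2.05). Cdan1, a partner of Asf1 chaperones, fell by 1.38 in the cDC1 lineage, and Anp32e, which removes the H2AZ variant, fell by 1.84 in the cDC2 lineage. From CDP, 1 gene of the list was lower in pre-CD8 cells (Chaf1b, a subunit of the replication-coupled chaperone CAF-1, by 1.32) and 3 in pre-CD4 cells, led by the importin Ipo4 (by 1.24) and the ATPase Ruvbl1 (by 1.10). Of all genes, 2.47% and 2.23% were lower in these steps. In CD24 against CD172a DCs 2 were higher, Ruvbl1 (0.88) and Rbbp7 (0.80), against 3.21% of all genes higher.

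Genes of the cell cycle fell in the same comparisons as the histone genes. All 19 measured mitosis genes were lower in both spleen DC populations, with medians of -2.68 in the cDC1 lineage and -2.53 in the cDC2 lineage. For these and the S phase counts below, 3.66% of all genes were lower in the cDC1 lineage and 8.02% in the cDC2 lineage. Kif11 and Nusap1, which build the spindle, fell by 3.04 each in CD24 DCs, and Birc5 and Plk1, which act in chromosome segregation, fell in CD172a DCs (-3.90 and -3.30). Of 37 S phase genes 16 were lower in CD24 DCs, with Rrm2 and Rrm1, the ribonucleotide reductase subunits, at -2.11 and -1.72. In CD172a DCs 20 were lower, with the helicase subunit Mcm7 and the replisome gene Gins2 at -2.07 and -1.81.

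Of 14 cell cycle exit genes, 3 rose and 3 fell in each lineage. Among all genes 2.65% rose and 3.66% fell in the cDC1 lineage, and 4.7% rose and 8.02% fell in the cDC2 lineage. Btg2, an antiproliferative gene, rose by 1.44 and 2.07, Foxo1, a transcription factor of quiescent cells, rose by 1.24 in CD24 DCs, and Btg1 rose by 1.70 in CD172a DCs. The cyclin-dependent kinase inhibitor genes Cdkn2c and Cdkn2d fell in CD24 DCs (-2.42 and -1.75), and Cdkn2d and Ccng2 in CD172a DCs (-2.29 and -2.10). Of 7 further histone genes outside the symbol rule, 1 was lower in CD24 DCs and 3 in CD172a DCs. Cenpa, the centromeric H3 variant, fell in CD24 DCs (-2.31) and CD172a DCs (-2.58), and rose by 0.92 in pre-CD4 cells over CDPs. H4f16, an H4 gene, fell in CD172a DCs (-1.33 ± 0.40, SE). Macroh2a1, an H2A variant with a large extra domain, was lower in pre-CD8 (-1.14 ± 0.19) and pre-CD4 cells (-0.89 ± 0.19) than in CDPs.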

How the data were processed

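Expression was measured on 12 whole-transcript arrays after amplification with the NuGen Ovation Pico WTA kit, per the labels' protocols. The authors deposited log2 values for 35145 probe sets in the series matrix; how background, probe summary and scaling were handled is not stated in any source used, and no further scaling was applied. Probe sets were named from the platform annotation: 23521 had 1 gene symbol, 1814 several and 9810 none. The probe set of 1 symbol with the highest mean over the arrays stood for each of 22180 genes. Groups followed the sample titles. All 5 groups entered 1 limma model (limma 3.58.1, R 4.3.3) with eBayes moderation and Benjamini-Hochberg adjustment over all genes. Calls needed an adjusted p under 0.05, and the fit was tested on simulated data. The interaction contrast was the cDC1 minus the cDC2 change on maturation.

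In each comparison and class the 4 called genes with the largest difference in each direction were named, with a panel of H1f2, H2ax, H2az1, H2az2 and H2aj and the highest and lowest gene of each class. Pathway genes were named from the 2 called with the largest difference in each direction of a list, and not for every comparison. Other histone genes are named to account for the family, after their values were seen. The histone genes, pathway and marker lists were chosen with earlier results of these data known. Alternatives were quantile normalization, leaving out the dimmest 40% of genes, every probe set, the mean of probe sets, only the groups compared, a block by replicate number, a trended robust prior, and leaving out arrays. The number of arrays limits the precision: the median SE was 0.244 for 3 against 2 arrays and 0.267 for 2 against 2.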

Additional observations from a re-analysis of the deposited data

Results flagged for a closer look

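The change of H2ax on maturation differed between the lineages, by the interaction contrast of the limma fit. The cDC1 change minus the cDC2 change was 3.14 ± 0.43 (SE, adjusted p = 0.00298), with H2ax at 9.32 to 10.20 in the 3 CD24 DC arrays and at 6.40 and 7.23 in the CD172a DC arrays. Left out in turn, no single array ended the call; leaving out the 5 arrays numbered 1 together did (2.36, adjusted p = 0.0532).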

How the results depend on the processing

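For the genes named by the rule, 15 results were recomputed under 20 other settings. Of 299 values none changed direction, 280 stayed on their side of the threshold and 19 lost it, and 8 results kept their call throughout. Many of these settings, such as leaving out an array of a group not compared, cannot change the fitted difference. The direction was fixed in advance under them. The 15 results were also chosen as called genes, most of them with the largest differences. In pre-CD8 against CDP the replication-dependent count of 1 (higher) became 0 under the filter on dim genes and 3, all lower, without the 5 arrays numbered 1, and the variant count of 0 became 1 (H1f10, lower) under the filter and 1 with only the groups compared. In pre-CD4 against CDP the replication-dependent count of 0 became 1 without the arrays numbered 1. In CD24 DC against pre-CD8 the replication-dependent count of 12 became 6 with only the groups compared, and the variant count of 1 became 2 there and 2 under the filter. In CD172a DC against pre-CD4 the variant count of 2 became 1 without the arrays numbered 1. Between the DC populations the replication-dependent count of 0 became 1 under quantile normalization, 1 under the filter and 1 with the replicate block, the gene being H1f2 each time. The interaction call of H2ax was lost without the arrays numbered 1. Causes were not tested.

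With 1 array left out in turn, the replication-dependent counts ran from 0 to 1 (pre-CD8 against CDP), 0 to 0 (both pre-CD4 comparisons with CDP and pre-CD8), 3 to 13 (CD24 DC), 9 to 14 (CD172a DC) and 0 to 2 (between DCs). The variant counts ran from 0 to 1, 0 to 0, 1 to 2, 1 to 2 and 1 to 1 in the same order, and the interaction count from 1 to 2. A lone array left in a group was assumed to vary like the other groups. Pairing by number was not established: over 21 same-number pairs the correlation of deviations was -0.16 to 0.42, and 13 exceeded 0.1. Those 13 were the pairs without a CD172a DC array, at 0.102 to 0.42. Pairs with a CD172a DC array ran from -0.16 to 0.02. The labels do not say what a number marks, and the reported fit holds no block by number. With the replicate block the CD172a DC count was 16, against 12.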

Other observations

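Probe sets that list several histone genes were read by family only, with no test. The 11 shared H2A probe sets gave 9 distinct readings, since some held identical values on every array. Over these 9 the median of the group means was 7.49 in CDPs, 7.15 in pre-CD4 and 7.05 in pre-CD8 cells, and 5.37 in CD172a and 4.77 in CD24 DCs. The mean was lower in the DCs on 9 of 9 in both lineages, with median differences of -1.47 in cDC1 and -1.63 in cDC2. On 6 shared H2B probe sets it was lower on 6 in cDC1 and 5 in cDC2, and on 5 shared H4 probe sets on 5 in both. The 12 probe sets that list only genes of the replication-dependent H3 clusters, the family for which no gene had a probe set of its own, were lower on 11 in cDC1 and 8 in cDC2, with median differences of -1.25 and -1.13. The 7 probe sets that list an H3f3 gene, which encodes the replacement form of H3, together with other genes were lower on 7 in cDC1 and 5 in cDC2, by medians of -0.30 and -0.48. Of the 22180 genes with a probe set of their own, the mean was lower in 9816 in cDC1 and in 9583 in cDC2.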
